A study of Mus musculus with 12 samples.

Results

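The PGC-1 coactivators and the estrogen-related receptors (ERR) they bind were followed in mouse soleus as a set of 8 genes out of the 30323 in the deposited table. They were Ppargc1a, Ppargc1b, Esrra, Esrrb, Esrrg, Perm1, Tfam and Nrf1, found by matching each Ensembl identifier to its mouse symbol, and all 8 passed the minimum mean of 1 TPM and were tested. TPM is a gene's transcripts scaled to its length and to the total of its library. The 12 libraries were soleus RNA of male C57BL/6N mice aged 24 months from the NIA aging colony, housed singly, with 8 weeks of voluntary wheel running before the operation. Accelerating rotarod performance had sorted the mice into high functioning (HF) and low functioning (LF) animals, and muscle was taken 5 days after a laparotomy or from controls of the same age, whose handling the labels do not describe further. This gave 3 libraries in each of 4 groups, HF laparotomy, HF control, LF laparotomy and LF control, so wheel running, age, sex and strain were shared by every group and no sedentary or young animals were among them. The labels do not state that each library came from a separate mouse, so p-values measure only how much these libraries vary, and that variation may be technical.

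PGC-1alpha (Ppargc1a) and PGC-1beta (Ppargc1b) do not bind DNA themselves. They attach to transcription factors, among them the orphan nuclear receptors ERRalpha, ERRbeta and ERRgamma (Esrra, Esrrb, Esrrg), and recruit the machinery that transcribes genes of the citric acid cycle, fatty acid oxidation and the respiratory chain. Perm1 is a muscle protein induced by PGC-1 and ERR, Nrf1 encodes nuclear respiratory factor 1, and Tfam encodes the factor that packages and transcribes mitochondrial DNA. In muscle, Ppargc1a is known for its induction by contraction, and soleus, a slow postural muscle, is rich in mitochondria.

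Of the 8 genes, 6 were lower in HF than in LF soleus over both treatments, tested by limma on log2(TPM + 1), and none was higher. A gene is termed called where its Benjamini-Hochberg adjusted p was below 0.05. Ppargc1a had the largest difference of the 8, with 4.08 ± 0.515 TPM in HF libraries and 8.64 ± 1.87 TPM in LF libraries (SD, n = 6 each), a mean 52.8% lower in HF. Ppargc1b, Esrrb, Esrrg, Perm1 and Tfam were the other 5, and Esrra and Nrf1 were not called. Among all 10757 genes tested, 35.3% were called lower in HF and 6.03% higher, so a lower level was common in these data. No gene of the set, and 0 of 10757 genes tested, was called for laparotomy against control.

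The scale of the table moved with rotarod group. The median difference of all tested genes was -0.147 on the log2 scale for HF against LF over both treatments, -0.108 in controls and -0.192 after laparotomy. Log2 differences below are therefore given relative to the median of their own comparison, while adjusted p-values refer to the values as deposited. After division by median-of-ratios size factors, which ranged from 0.837 to 1.06 in HF and from 0.950 to 1.14 in LF libraries, 22.6% of genes were called lower and 17.4% higher. Of the 8 genes, 5 were called lower on that scale. Transcript length moved with the comparison too, with a median difference of -0.241 in the longest transcripts (the top 2672 of 10686 genes with a length) and -0.0667 in the shortest 2681. With that trend and one on GC content taken out, 20.8% of genes were called lower and 17.2% higher, and 6 of the 8 genes were again called lower, with Esrra called and Perm1 not. Because the RNA came from bulk muscle, fewer cells of a type and less RNA per cell cannot be told apart.

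Promoter sequences (RefSeq, GRCm38.p6) were found for 7 of the 8 genes, as 12 start sites, and the 250 bases before each start were searched on both strands for sites of factors that act on these genes. A cAMP response element end, an ETS site and a MEF2 site matched in the 3 windows printed here, one for each kind of match. The Ppargc1a and Esrrg windows were cut to bases outside annotated exons. The Tfam match lies in an exon that GENCODE places there, so just 29 bases around it are shown. Capitals mark the match. The Ppargc1a window lies at chr5:51567727-51567975 on the minus strand, the Esrrg window at chr1:187608900-187609005 on the plus strand, and the Tfam window at chr10:71238073-71238101 on the minus strand.
Ppargc1a: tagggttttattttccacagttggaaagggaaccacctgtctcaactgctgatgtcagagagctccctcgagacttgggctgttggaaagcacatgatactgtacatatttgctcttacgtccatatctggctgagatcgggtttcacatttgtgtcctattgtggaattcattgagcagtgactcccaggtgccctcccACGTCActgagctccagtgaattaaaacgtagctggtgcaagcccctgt
Esrrg: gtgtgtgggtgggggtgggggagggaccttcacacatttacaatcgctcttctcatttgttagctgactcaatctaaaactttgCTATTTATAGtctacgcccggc
Tfam: ctgccgcggaCCGGAAGTccgggcttccc

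The capitals in Ppargc1a are ACGTCA, 50 to 45 bases before the start, which are the last 6 letters of the cAMP response element TGACGTCA bound by CREB. This start, the only one of Ppargc1a searched, lies at the outermost end of the annotated gene. Any start further inside the gene was not searched. The full element was in 0 of the 12 promoters of the set and in 1.55% of all 32851 promoters, and its end in 1 of the 12 and in 6.47% of all. The capitals in Esrrg are a MEF2 site 22 to 13 bases before its first start. That motif was in 2 of the 12, the other being a start site of Nrf1, and in 2.92% of all promoters. The capitals in Tfam are CCGGAAGT, a site of the ETS family bound by GABP, 47 to 40 bases before the start, in 1 of the 12 and in 2.88% of all. The ERR response element TNAAGGTCA was in 0 of the 12 and 1.14% of all promoters, and the NRF1 site, spelled GCGCA, any base, GCGC, in 0 of the 12 and 3.74% of all. A match is only a description of these letters, and its absence covers only the 250 bases before each of the 12 starts searched.

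Ppargc1a (ENSMUSG00000029167, chr5:51454250-51567726 of GRCm38, minus strand, 5 annotated transcripts) encodes PGC-1alpha. Its levels were 3.59, 3.56 and 4.40 TPM in the HF laparotomy libraries and 3.71, 4.70 and 4.52 TPM in the HF control libraries. They were 5.30, 8.68 and 10.1 TPM in the LF laparotomy libraries and 7.96, 10.4 and 9.40 TPM in the LF control libraries. Every HF library was below every LF library, a separation in the same direction that 9.31% of all tested genes also showed. The difference over both treatments was -0.76 ± 0.13 (SE; 95% interval -1.03 to -0.48, adjusted p = 0.000514), and Ppargc1a was called in all 20 alternative settings. In controls it was -0.84 ± 0.18 (adjusted p = 0.0161) and after laparotomy -0.67 ± 0.18 (adjusted p = 0.00854). The call in controls ended when any 1 of 4 control libraries was left out, with adjusted p = 0.0666 without HF control 1, 0.0585 without HF control 3, 0.0771 without LF control 2 and 0.0615 without LF control 3. It ended also with no filter on low values (adjusted p = 0.0611).

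**Figure D1:**
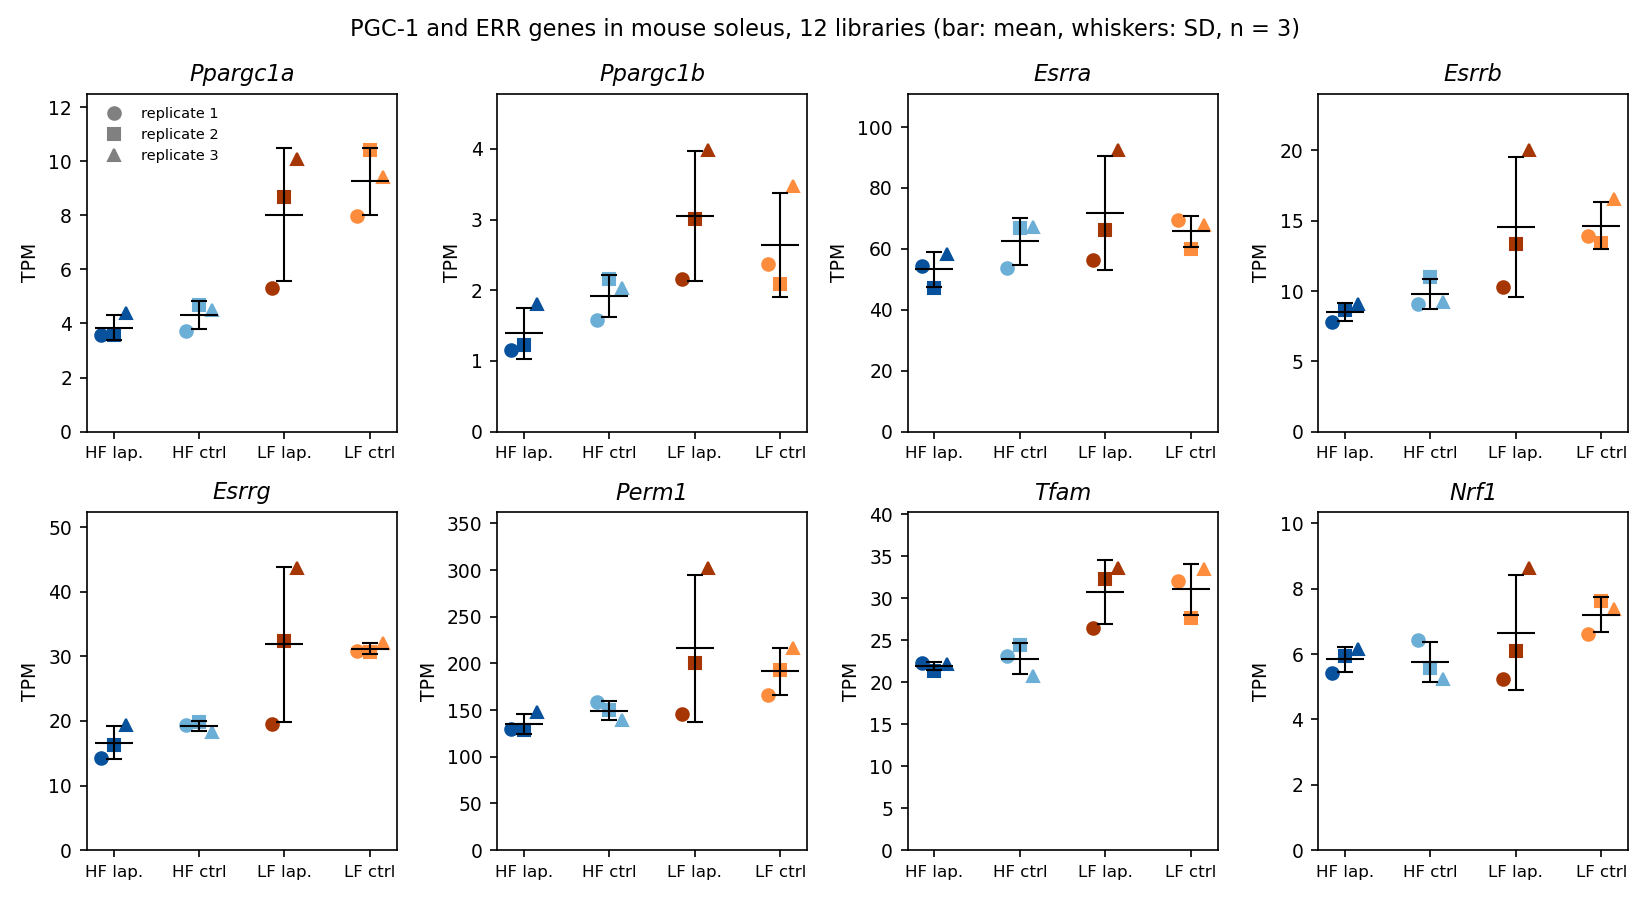
Levels of the 8 genes in TPM (vertical axes, each from 0) in the 12 libraries, with HF laparotomy, HF control, LF laparotomy and LF control from left to right; points are libraries, bars the mean and whiskers the SD of 3 libraries. Ppargc1a lies between 3.56 and 4.70 TPM in HF libraries and between 5.30 and 10.4 TPM in LF libraries, and the LF laparotomy group has the largest SD of the 4 groups for each of the 8 genes.

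Ppargc1b (ENSMUSG00000033871, chr18:61298136-61400431) encodes PGC-1beta, a relative of PGC-1alpha that is also active in mitochondrial gene expression. It was the least abundant of the 8, above 17.2% of tested genes by mean level. Its levels were 1.15, 1.22 and 1.80 TPM in HF laparotomy and 1.59, 2.16 and 2.03 TPM in HF control libraries, against 2.16, 3.01 and 3.99 TPM in LF laparotomy and 2.37, 2.09 and 3.48 TPM in LF control libraries. After laparotomy all 3 HF libraries were below all 3 LF libraries, while in controls the groups overlapped. Ppargc1b differed by -0.38 ± 0.13 over both treatments (95% interval -0.66 to -0.10, adjusted p = 0.00676). The difference after laparotomy was -0.55 ± 0.18 (adjusted p = 0.0137), and in controls it was -0.20 ± 0.18 (adjusted p = 0.267, 95% interval -0.59 to 0.20). With 0.1 TPM added in place of 1, the difference after laparotomy was -0.84 for Ppargc1b and -0.77 for Ppargc1a. Which of the pair differed more after laparotomy thus depended on the amount added. The Ppargc1b call after laparotomy ended without HF laparotomy 1 (adjusted p = 0.0563), HF laparotomy 2 (0.0539) or LF laparotomy 3 (0.0620), and with no filter (0.0536). The interaction, the laparotomy difference in HF minus that in LF, was -0.35 ± 0.26 (adjusted p = 0.9998), so both differences were not shown to be unequal.

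The coactivators can be set against each other within a library. There were 2.18 to 3.12 TPM of Ppargc1a for each TPM of Ppargc1b in HF libraries (median 2.39) and 2.45 to 4.99 in LF libraries (median 2.80). These ranges overlapped. The ratio of Ppargc1a to the receptor Esrra did not overlap: 100 TPM of Esrra stood beside 6.58 to 7.57 TPM of Ppargc1a in HF libraries (median 6.98) and 9.39 to 17.4 TPM in LF libraries (median 12.3). Such a ratio is unaffected by the scale of a library, but not by the trend on transcript length and GC content. Over both treatments Ppargc1a differed by -0.76 and Esrra by -0.09, and with that trend taken out by -0.66 and -0.28. The ratio does not show which of the pair changed, and the share of all gene pairs without overlap was not counted.

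Esrra (ENSMUSG00000024955, chr19:6910977-6921813, minus strand) encodes ERRalpha, the main partner of PGC-1alpha at oxidative genes. It was the most abundant receptor, above 90.3% of tested genes. HF laparotomy libraries had 54.5, 47.1 and 58.4 TPM and HF control libraries 53.6, 66.8 and 67.2 TPM, against 56.4, 66.1 and 92.5 TPM in LF laparotomy and 69.3, 60.0 and 67.9 TPM in LF control libraries. HF and LF libraries overlapped under both treatments. The difference over both treatments was -0.09 ± 0.11 (95% interval -0.33 to 0.16, adjusted p = 0.113), in controls 0.03 ± 0.16 (adjusted p = 0.779) and after laparotomy -0.20 ± 0.16 (adjusted p = 0.0845). Esrra was called lower in HF in 2 of 20 alternatives, without LF laparotomy 1 (-0.14, adjusted p = 0.0277) and after correction for transcript length and GC content (-0.28, adjusted p = 0.012). Its exons overlap Trmt112 on the opposite strand and the microRNA gene Mir6990 on its own strand, and how the authors' quantification treated strand was not stated, so its level is uncertain.

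Esrrb (ENSMUSG00000021255, chr12:86361117-86521628, plus strand) encodes ERRbeta, known from stem cells and also expressed in oxidative muscle. HF laparotomy libraries had 7.79, 8.63 and 9.07 TPM and HF control libraries 9.11, 11.03 and 9.22 TPM, against 10.3, 13.4 and 20.0 TPM in LF laparotomy and 13.9, 13.5 and 16.6 TPM in LF control libraries. The groups were separate within each treatment, but HF control 2, the highest HF library, was above LF laparotomy 1, the lowest LF library. Esrrb differed by -0.45 ± 0.13 over both treatments (95% interval -0.73 to -0.17, adjusted p = 0.00341). It was called after laparotomy (-0.47 ± 0.18, adjusted p = 0.0209) and not in controls (-0.43 ± 0.18, adjusted p = 0.0718), with nearly the same size of difference. The Esrrb call after laparotomy ended without HF laparotomy 1 (adjusted p = 0.0738), HF laparotomy 2 (0.0595), LF laparotomy 2 (0.0546) or LF laparotomy 3 (0.0664), with no filter (0.0705) and with only the groups compared (0.0573). In controls Esrrb was called in 5 of 21 alternatives. Those were the fits without LF laparotomy 1 (adjusted p = 0.026) or LF laparotomy 3 (0.0165), with only the groups compared (0.0246), with TPM rescaled (0.0263) and after correction for length and GC content (0.0376).

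Esrrg (ENSMUSG00000026610, chr1:187608791-188214885, plus strand) encodes ERRgamma, a receptor of high-energy tissues that is abundant in slow oxidative muscle. HF laparotomy libraries had 14.3, 16.3 and 19.4 TPM and HF control libraries 19.4, 19.9 and 18.4 TPM, against 19.6, 32.4 and 43.6 TPM in LF laparotomy and 30.8, 30.7 and 32.1 TPM in LF control libraries. Both control groups were tight, and LF laparotomy 1, at 19.6 TPM, was the one LF library within the range of the HF libraries. After Ppargc1a, Esrrg had the largest difference of the set over both treatments, -0.61 ± 0.15 (95% interval -0.93 to -0.29, adjusted p = 0.00212). The difference was -0.56 ± 0.21 in controls (adjusted p = 0.0556) and -0.64 ± 0.21 after laparotomy (adjusted p = 0.0147). The Esrrg call after laparotomy ended without HF laparotomy 1 (adjusted p = 0.0600), LF laparotomy 2 (0.0553) or LF laparotomy 3 (0.0531). It ended also with no filter (0.0586) and with only the groups compared (0.0510). In controls Esrrg was called in 7 of 21 alternatives: without LF laparotomy 1 (adjusted p = 0.00754) or LF laparotomy 3 (0.0169), with only the groups compared (0.00785), TPM rescaled (0.0251), the myosin covariate (0.0261), size factors (0.0394) and a minimum of 5 TPM (0.0402).

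The mix of the 3 receptors was compared within libraries. Esrra made up 65.3% to 71.2% of the summed TPM of the 3 ERR genes in HF libraries (median 67.8%) and 57.6% to 65.4% in LF libraries (median 59.2%). Esrrg made up 18.6% to 23.6% in HF libraries (median 21.3%) and 22.7% to 29.5% in LF libraries (median 27.7%). In both shares the ranges met only through LF laparotomy 1, which had the highest Esrra share and the lowest Esrrg share of the LF libraries.

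**Figure D2:**
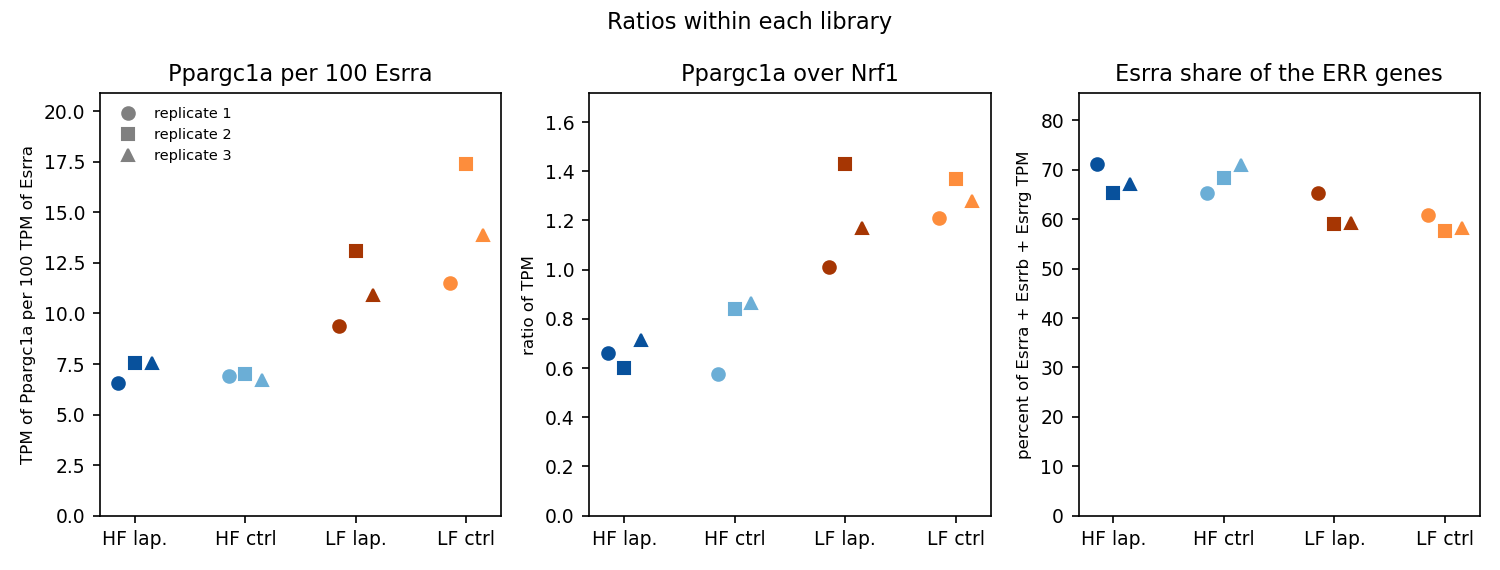
Ratios within each of the 12 libraries (vertical axes, each from 0): TPM of Ppargc1a per 100 TPM of Esrra, TPM of Ppargc1a over TPM of Nrf1, and Esrra as percent of the summed TPM of Esrra, Esrrb and Esrrg; points are libraries, HF groups left of LF groups. Ppargc1a per 100 Esrra is 6.58 to 7.57 in HF and 9.39 to 17.4 in LF libraries, and the Esrra share is 65.3% to 71.2% in HF and 57.6% to 65.4% in LF libraries.

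Perm1 (ENSMUSG00000078486, chr4:156215868-156221307, plus strand) encodes the muscle regulator induced by PGC-1 and ERR. It was the most abundant of the 8, above 95.9% of tested genes. HF laparotomy libraries had 129.5, 129 and 148 TPM and HF control libraries 159, 149.8 and 139 TPM, against 146, 201 and 302 TPM in LF laparotomy and 166, 193 and 216 TPM in LF control libraries. The groups were separate in controls and overlapped after laparotomy, where LF laparotomy 1 lay below HF laparotomy 3. Perm1 differed by -0.33 ± 0.14 over both treatments (95% interval -0.64 to -0.03, adjusted p = 0.0156), by -0.24 ± 0.20 in controls (adjusted p = 0.238) and by -0.42 ± 0.20 after laparotomy (adjusted p = 0.0389). The 95% interval after laparotomy, -0.85 to 0.009, included 0, while the adjusted p tests the difference as deposited, -0.61. Its call over both treatments ended with size factors (adjusted p = 0.0504), with no filter on low values (adjusted p = 0.0614) and after correction for length and GC content (adjusted p = 0.105). The Perm1 call after laparotomy ended without HF laparotomy 1 (adjusted p = 0.106), HF laparotomy 2 (0.110), HF laparotomy 3 (0.0505), LF laparotomy 2 (0.0857), LF laparotomy 3 (0.133) or LF control 2 (0.0519). It ended also with size factors (0.108), TPM rescaled (0.0724), no filter (0.124), only the groups compared (0.0827) and correction for length and GC content (0.160). For each TPM of Ppargc1a there were 30.8 to 42.9 TPM of Perm1 in HF libraries (median 34.9) and 18.5 to 29.9 in LF libraries (median 23.0), ranges that did not overlap. Ppargc1a alone already separated HF from LF libraries, and the share of all gene pairs without overlap was not counted.

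Tfam (ENSMUSG00000003923, chr10:71225464-71238280, minus strand), the mitochondrial DNA packaging factor, was the other gene whose HF libraries were all below its LF libraries in the TPM as deposited. HF laparotomy libraries had 22.3, 21.4 and 22.1 TPM and HF control libraries 23.1, 24.4 and 20.8 TPM, against 26.5, 32.4 and 33.6 TPM in LF laparotomy and 32.1, 27.6 and 33.5 TPM in LF control libraries. With size factors the HF and LF libraries of Tfam overlapped, while those of Ppargc1a, Esrrb and Esrrg were separate, with HF below. On that scale Esrrb was at 9.18 to 10.4 in HF and 10.8 to 17.6 in LF libraries. Esrrg was at 17.1 to 20.0 in HF and 20.6 to 38.3 in LF libraries. The share of all tested genes separate on that scale was not counted. The 6 HF libraries had a coefficient of variation of 5.82%, the lowest of the set. Tfam differed by -0.30 ± 0.080 over both treatments (95% interval -0.47 to -0.13, adjusted p = 0.00136), by -0.32 ± 0.11 in controls (adjusted p = 0.0348) and by -0.27 ± 0.11 after laparotomy (adjusted p = 0.0131). The call in controls was lost in 6 of the 12 fits that left out 1 library: without HF laparotomy 2 (adjusted p = 0.055), HF control 1 (0.0939), HF control 3 (0.133), LF control 1 (0.0755), LF control 2 (0.0777) and LF control 3 (0.126). It was lost also with no filter (0.0759) and without the libraries with Myh4 above 30 TPM (0.0986). The Tfam call after laparotomy ended without HF laparotomy 2 (adjusted p = 0.0525) or LF laparotomy 2 (0.0564).

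Nrf1 (ENSMUSG00000058440, chr6:30047988-30153458, plus strand) encodes a factor that binds promoters of respiratory chain genes and of Tfam. HF laparotomy libraries had 5.41, 5.94 and 6.17 TPM and HF control libraries 6.43, 5.58 and 5.23 TPM, against 5.24, 6.09 and 8.62 TPM in LF laparotomy and 6.60, 7.63 and 7.37 TPM in LF control libraries. The groups were separate in controls and overlapped after laparotomy. The difference over both treatments was -0.06 ± 0.10 (95% interval -0.28 to 0.16, adjusted p = 0.114), and Nrf1 was called lower in 1 of 20 alternatives, without LF laparotomy 1 (adjusted p = 0.028). The ratio of Ppargc1a to Nrf1, 0.577 to 0.864 in HF libraries and 1.01 to 1.43 in LF libraries, did not overlap. The ratio of Ppargc1a to Tfam did, at 0.160 to 0.217 in HF libraries and 0.200 to 0.378 in LF libraries. Ppargc1a alone already separated HF from LF libraries, and the share of all gene pairs without overlap was not counted.

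**Figure D3:**
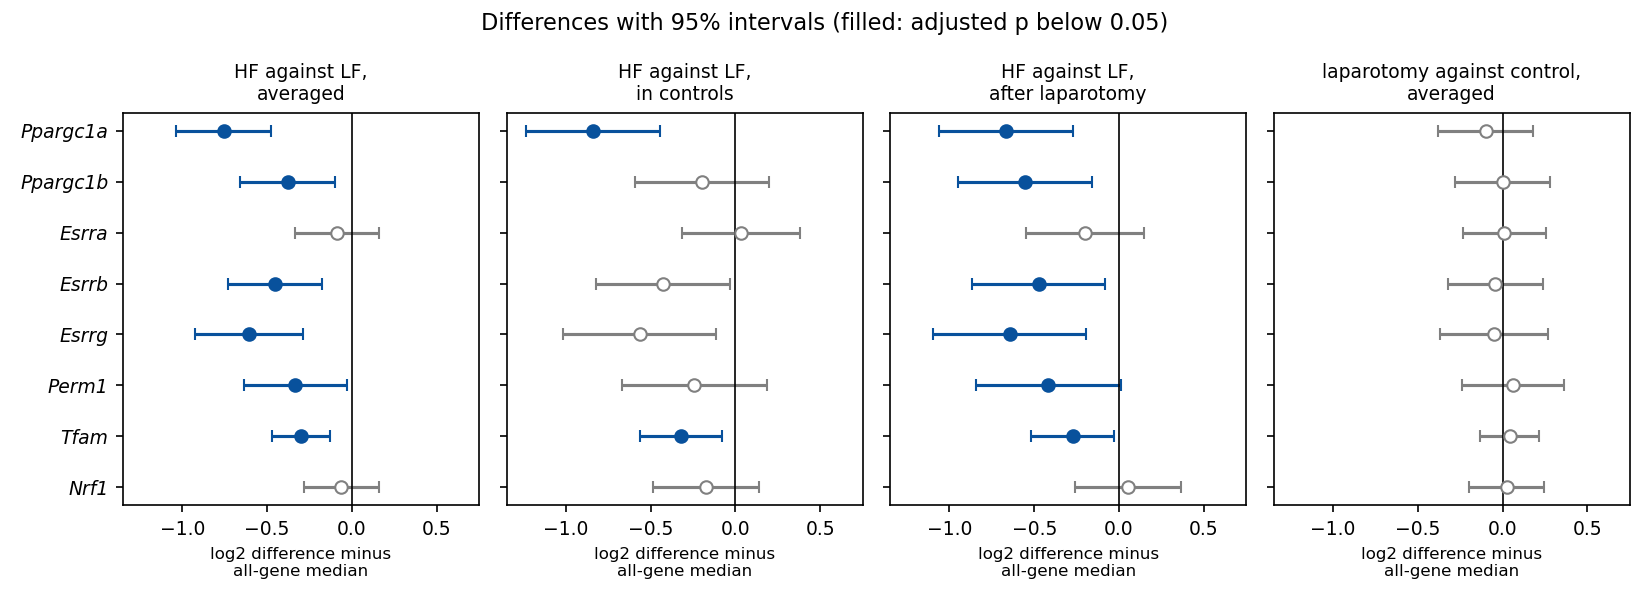
Log2 differences of the 8 genes minus the median of all tested genes (horizontal axes, with 95% intervals) for HF against LF averaged over treatments, in controls and after laparotomy, and for laparotomy against control averaged over HF and LF; filled points had an adjusted p below 0.05, which tests the difference before the median is taken off. Ppargc1a lies lowest in the first 3 panels, between -0.84 and -0.67, and all 8 intervals of the laparotomy panel include 0. With 0.1 TPM added in place of 1, Ppargc1b (-0.84) was below Ppargc1a (-0.77) for HF against LF after laparotomy.

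Within treatments, 2 of the 8 genes, Ppargc1a and Tfam, were called lower in HF controls than in LF controls, where 8.04% of tested genes were, and 6 of the 8 after laparotomy, where 24.5% of tested genes were. HF and LF libraries were separate, with HF below, for 6 of the 8 genes in controls (31.3% of tested genes) and for 5 of the 8 after laparotomy (36.2%). After laparotomy the count of 6 fell to 2 without HF laparotomy 1, HF laparotomy 2, LF laparotomy 2 or LF laparotomy 3, each left out alone, and with no filter on low values. It fell to 3 with only the groups compared. Ppargc1a was among the called genes each time. In controls the count of 2 became 0 without HF control 1, HF control 3, LF control 2 or LF control 3 and with no filter, and 1 without HF laparotomy 2 or LF control 1. It became 4 without LF laparotomy 1 or LF laparotomy 3, with TPM rescaled and with only the groups compared. LF laparotomy 1 had the lowest value of the 6 LF libraries for 7 of the 8 genes, all but Ppargc1b, and LF laparotomy 3 the highest for 7 of the 8, all but Ppargc1a. Their size factors were also the lowest, 0.950, and the highest, 1.14, of the LF libraries. Without LF laparotomy 1 all 8 genes were called lower in HF over both treatments, including Esrra and Nrf1, in a fit that called 41.6% of all tested genes lower. Ppargc1a then differed by -0.85. Esrra was then called after laparotomy too (-0.30, adjusted p = 0.0164). Without LF laparotomy 3 the same 6 genes were called over both treatments as with all libraries, and Ppargc1a differed by -0.70.

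Laparotomy was compared with control within each rotarod group and over both. By limma 0 of 10757 genes were called in any of these comparisons or in the interaction. At an unadjusted p below 0.05 there were 747 genes over both groups, 291 in LF, 665 in HF and 331 for the interaction. For Ppargc1a the laparotomy difference was -0.10 ± 0.13 over both rotarod groups (95% interval -0.38 to 0.18), -0.01 ± 0.18 in HF (95% interval -0.40 to 0.38) and -0.19 ± 0.18 in LF (95% interval -0.58 to 0.20). The interaction for Ppargc1a was 0.18 ± 0.26 (95% interval -0.38 to 0.74, adjusted p = 0.9998). The other 7 genes had laparotomy differences over both groups between -0.05 for Esrrg and 0.06 for Perm1. Only Esrrb had all 3 HF laparotomy libraries (7.79 to 9.07 TPM) below all 3 HF control libraries (9.11 to 11.03 TPM), as had 16.6% of tested genes, and its difference was not called (-0.06 ± 0.18, adjusted p = 0.691).

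The factors that act on PGC-1alpha or on its gene were read from a list of 32 kinases, deacetylases, acetylases and DNA-binding factors, of which 31 were tested. In HF against LF over both treatments 0 were called higher and 21 lower, with a median of -0.16 against 0 for all tested genes by construction, and with size factors 2 were higher and 14 lower. Of all tested genes 35.3% were called lower as deposited, and 22.6% lower and 17.4% higher with size factors. Camk2a, a calcium and calmodulin dependent kinase, had 11.3 ± 0.329 and 12.5 ± 0.232 TPM in HF laparotomy and HF control libraries and 24.5 ± 6.91 and 25.5 ± 3.10 TPM in LF laparotomy and LF control libraries (-0.84 ± 0.12, adjusted p = 0.00031). Prkaa2, a catalytic subunit of the AMP-activated kinase that phosphorylates PGC-1alpha, had 15.9 ± 1.38 TPM in HF and 30.1 ± 5.87 TPM in LF libraries (-0.71 ± 0.12, adjusted p = 0.000446). Its regulatory partner Prkab2 was lower as well (-0.33 ± 0.081). Of the MEF2 factors, which bind the Ppargc1a gene in muscle, Mef2d (-0.54 ± 0.11) and Mef2a (-0.40 ± 0.096) were lower in HF. These genes were among the 5 with the smallest p in the list, and other MEF2 genes are not reported here. The deacetylase Sirt1, which acts on PGC-1alpha protein, had 4.40 ± 0.490 TPM in HF and 4.74 ± 0.658 TPM in LF libraries and was not called (0.06 ± 0.074, adjusted p = 0.373). After correction for transcript length and GC content Sirt1 was called higher in HF (0.19, adjusted p = 0.0132).

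Among 30 receptors, other partners and corepressors that work with or against PGC-1 and ERR, 0 were called higher and 18 lower in HF, with a median of -0.19. On size factors these counts were 0 and 14. The all-gene shares called lower in these fits were 35.3% and 22.6%. Ppara, the fatty acid receptor that PGC-1alpha coactivates, had 2.59 ± 0.531 TPM in HF and 7.38 ± 2.61 TPM in LF libraries (-1.02 ± 0.21, adjusted p = 0.00133). Lpin1, which amplifies PGC-1alpha and PPARalpha signalling in liver, had 19.2 ± 3.65 TPM in HF and 37.5 ± 6.59 TPM in LF libraries (-0.78 ± 0.13, adjusted p = 0.000488). The coactivator Ncoa2 (-0.47 ± 0.095) and the thyroid hormone receptor Thrb (-0.44 ± 0.11) were lower too. So was Nrip1, a corepressor of oxidative genes that opposes PGC-1, with 1.76 ± 0.202 TPM in HF and 2.85 ± 0.442 TPM in LF libraries (-0.33 ± 0.086, adjusted p = 0.00143). Gabpa, the ETS factor of the site shown in the Tfam window, had 7.67 ± 1.47 TPM in HF and 12.5 ± 2.40 TPM in LF libraries (-0.48 ± 0.13, adjusted p = 0.00296). Ppard was called lower (-0.16 ± 0.12, adjusted p = 0.0473), but in 7 of 20 alternatives. Its 95% interval reached 0.25 to either side of -0.16 and so included 0, while the adjusted p tests the difference as deposited, -0.31.

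The machinery of mitochondrial DNA, in which Tfam acts, held genes called in either direction. Of 26 genes listed, 20 were tested, 1 was called higher and 8 lower, and the median was 0.04. With size factors 3 were higher and 4 lower. These counts lie near the shares of all tested genes, 6.03% higher and 35.3% lower as deposited and 17.4% higher and 22.6% lower with size factors. Polrmt, the mitochondrial RNA polymerase, had 18.5 ± 0.903 TPM in HF and 12.7 ± 2.22 TPM in LF libraries (0.67 ± 0.10, adjusted p = 0.00199), so it was higher where Tfam was lower. Lrpprc, which stabilises mitochondrial messenger RNA, had 25.7 ± 3.83 TPM in HF and 41.5 ± 6.88 TPM in LF libraries (-0.52 ± 0.11, adjusted p = 0.000883). Mterf2 (-0.23 ± 0.078), Rrm2b (-0.36 ± 0.10), which supplies deoxynucleotides, and Tfb2m (-0.21 ± 0.078), the partner of Tfam at mitochondrial promoters, were lower. Tfb2m was not called with size factors (adjusted p = 0.0607). The mitochondrially encoded messenger RNAs themselves held 32.3% to 35.9% of the TPM in HF libraries (median 35.4%) and 26.4% to 39.7% in LF libraries (median 32.9%), ranges that overlapped.

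Of 48 textbook targets of PGC-1 and ERR in striated muscle, 3 were called higher, 22 lower and 23 neither in HF, with a median of -0.08. With size factors 4 were higher and 12 lower. Of all tested genes 6.03% were called higher and 35.3% lower as deposited, and 17.4% higher and 22.6% lower with size factors. As deposited the targets' share called higher was near that of all genes, and their share called lower was above it. With size factors their share called lower was near that of all genes, and their share called higher was below it. Mitochondrial enzymes were among those with the smallest p and were lower. Citrate synthase (Cs) had 276 ± 29.8 TPM in HF and 427 ± 34.9 TPM in LF libraries (-0.48 ± 0.076, adjusted p = 0.000318), and Ogdh of the oxoglutarate dehydrogenase complex had 240.0 ± 20.1 TPM in HF and 418 ± 62.5 TPM in LF libraries (-0.64 ± 0.097, adjusted p = 0.000351). The aminotransferase Got2 (-0.46 ± 0.086) and the succinate dehydrogenase subunit Sdha (-0.45 ± 0.096) were lower too. Cpt1b, which admits fatty acids to mitochondria, was called lower (-0.26 ± 0.12, adjusted p = 0.0155), but not with size factors (adjusted p = 0.0844) or with no filter (adjusted p = 0.0559). Cytochrome c (Cycs) had 75.9 ± 6.83 TPM in HF and 77.5 ± 6.00 TPM in LF libraries and was not called (0.12 ± 0.077, adjusted p = 0.772). For laparotomy against control, 0 genes of any of the 4 lists were called.

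**Figure D4:**
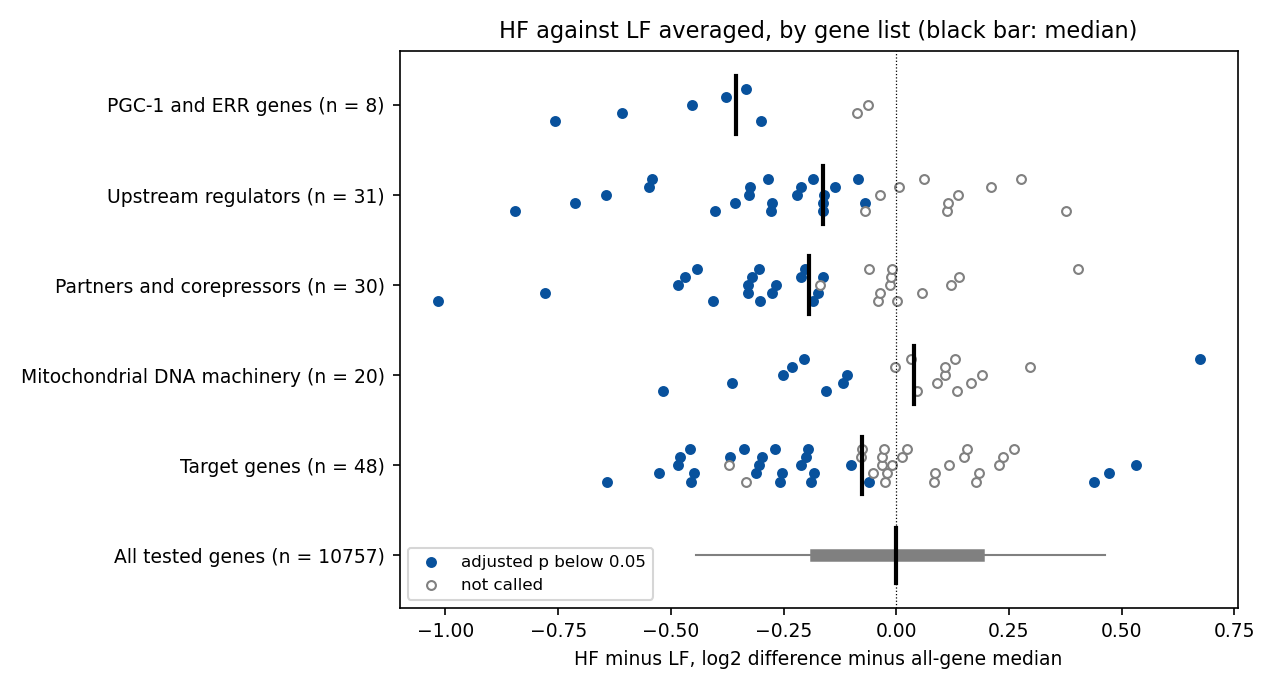
HF minus LF log2 difference averaged over treatments, minus the median of all tested genes (horizontal axis), for the 8 genes and the 4 lists; points are genes, filled where the adjusted p was below 0.05, black bars are medians, and the bottom row shows all 10757 tested genes with a box from the 25% to the 75% quantile and a line from 5% to 95%. The medians are -0.36 for the 8 genes, -0.16, -0.19, 0.04 and -0.08 for the lists from top to bottom.

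Among the genes most like Ppargc1a across the 12 libraries, by Pearson correlation of log2(TPM + 1) and with predicted genes left out, were Pde4d (0.992), Egf (0.987), Snx27 (0.986) and Vps13c (0.986). The least like were Ntan1 (-0.949), Med12 (-0.926) and Usp47 (-0.924). Pde4d, a phosphodiesterase that degrades cAMP, had 12.0 ± 2.27 TPM in HF and 33.1 ± 8.86 TPM in LF libraries. Ntan1, an amidase of the N-terminal degradation pathway, ran the other way, with 52.5 ± 3.78 TPM in HF and 31.4 ± 2.17 TPM in LF libraries. Within the set the correlation with Ppargc1a was 0.949 for Esrrg, 0.926 for Esrrb, 0.900 for Tfam, 0.851 for Perm1, 0.840 for Ppargc1b, 0.752 for Nrf1 and 0.688 for Esrra. The median over all tested genes was 0.556, and all points share the HF and LF split and the scale of each library. Such a correlation describes these libraries and carries no test.

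With the group means taken off, the genes most like Ppargc1a included Vps26b (0.983), Pdpr (0.983), Ip6k3 (0.976) and Pde4d (0.972), and the least like were Fam84b (-0.926), Ggta1 (-0.908) and Tjp1 (-0.881). Pdpr, the regulatory subunit of pyruvate dehydrogenase phosphatase, had 7.88 ± 2.43 TPM in HF and 26.3 ± 6.84 TPM in LF libraries. Esrrg stayed nearest to Ppargc1a in the set (0.865), followed by Perm1 (0.814), Esrrb (0.782), Ppargc1b (0.716), Esrra (0.714), Nrf1 (0.678) and Tfam (0.473), beside a median of 0.442 over all tested genes. Tfam, which was among the nearer genes over all libraries, was close to that median within groups. These values were not divided by size factors, so they also share the scale of each library. LF laparotomy 1 (size factor 0.950) was the lowest and LF laparotomy 3 (1.14) the highest LF library, each for 7 of the 8 genes.

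The markers of soleus and of other cell types in it were read beside these results. Slow fibre markers summed to 42400 to 53300 TPM in HF and 35800 to 47100 TPM in LF libraries, and fast fibre markers to 30600 to 44700 TPM in HF and 35800 to 45600 TPM in LF libraries. Of the slow markers 3 of 10 were called higher and 2 lower in HF, and of the fast markers 0 of 12 higher and 3 lower. Endothelial markers summed to 374 to 527 TPM in HF and 308 to 385 TPM in LF libraries, with 5 of 10 called higher and 0 lower. Adipocyte markers summed to 385 to 625 TPM in HF and 305 to 393 TPM in LF libraries, with 1 of 6 tested called higher. Schwann cell and nerve markers summed to 79.8 to 251 TPM in HF and 64.5 to 79.5 TPM in LF libraries, with 3 of 6 tested called higher. The 5 brown adipocyte markers summed to 8.98 to 15.5 TPM in HF and 8.52 to 16.6 TPM in LF libraries, with Ucp1 at 0 in every library. The 1 of them that was tested was not called. Beside these counts, 6.03% of all tested genes were called higher and 35.3% lower. With size factors the slow markers had 5 called higher and 1 lower, and the fast markers 0 and 1. Endothelial markers then had 5 higher and 0 lower, adipocyte markers 1 and 0, and Schwann cell and nerve markers 6 and 0. The all-gene shares on that scale were 17.4% higher and 22.6% lower. The part of the slow fibre, fast fibre, endothelial, adipocyte, brown adipocyte and Schwann cell markers in the lower levels of the 6 genes was not tested. Of the fast fibre markers the alternative fits used only Myh4, at 3.05 to 90.8 TPM beside 2179 to 3339 TPM of the slow myosin Myh7. The fast fibre myosin Myh4 was above 30 TPM in 3 libraries, HF laparotomy 2, LF laparotomy 1 and LF control 3. Without those 3, a choice made after seeing the data, the same 6 genes were called lower in HF over both treatments, and Ppargc1a differed by -0.82 (adjusted p = 0.00101). In the lists above, the counts called lower became 17 of 31 factors acting on PGC-1alpha, 17 of 30 partners, 5 of 20 mitochondrial DNA genes and 21 of 48 targets, in a fit that called 30.6% of all tested genes lower.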

How the data were processed

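Soleus RNA was made into stranded, polyA-selected TruSeq libraries, per the labels' protocols. The authors deposited 1 table of TPM per gene, and the submitters' processing notes name kallisto, DESeq2 and GRCm38 without roles or versions. Read depth, annotation and strand setting were not stated, so counting intervals could not be made. The TPM of a library sum to 956473 to 962830, with 16993 to 18148 genes above 0, and no pair of libraries was a duplicate. Symbols matched 29857 of 30323 identifiers through GENCODE M21 and NCBI names.

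The 10757 genes whose mean reached 1 TPM were compared as log2(TPM + 1), which was tested by limma 3.58.1 in R 4.3.3, with 1 mean per group, a trended prior, 8 residual degrees of freedom and Benjamini-Hochberg adjustment at 0.05 over all tested genes in each of 7 comparisons. A fold change on this scale understates the change of low genes. The fit was tested on simulated data. Promoters came from RefSeq tables.

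The 8 genes were named in every comparison. From each list the 5 genes with the smallest p for HF against LF and 8 preset genes were named, with the 5 genes most and 3 least like Ppargc1a; some of these are not reported here. The 3 per list with the smallest p for laparotomy (adjusted p = 0.683 each) were Sirt1, Kat2b, Prkab2, Ep300, Rxrg, Ppard, Mterf4, Mterf2, Rrm2b, Vldlr, Fndc5 and Vegfa. The genes, lists and rules were chosen with earlier results of these data known, so they are not independent of them. Alternatives changed the pseudocount (0.1), the minimum TPM (none or 5), the scaling (size factors, or TPM rescaled without the 13 mitochondrially encoded genes and the 10 most abundant), the samples fitted, a length and GC trend, a myosin covariate and each library in turn. Levels of the other marker lists were summed in the same way: fibroadipogenic, macrophage, satellite cell, tendon and erythroid sums overlapped between HF and LF libraries.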

Additional observations from a re-analysis of the deposited data

How the results depend on the processing

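Over both treatments the HF against LF count of 4447 called genes stayed within 1.5 times in every alternative (3623 to 5106 with 1 library left out), but its split moved, with 649 higher and 3798 lower as deposited and 1872 higher and 2428 lower with size factors. In that comparison Ppargc1a, Esrrb, Esrrg and Tfam were called in 20 of 20 alternatives, Ppargc1b in 19 of 19 (a minimum of 5 TPM removed it) and Perm1 in 17. In controls the count of 1127 became 121 with no filter, 1825 with size factors, 2243 with TPM rescaled and 137 without the 3 libraries with Myh4 above 30 TPM, and ranged from 2 (without LF control 2) to 2082 (without LF laparotomy 1) with 1 library left out. After laparotomy 2796 became 1487 with no filter and 1362 with only the groups compared, and ranged from 1050 (without LF laparotomy 2) to 4163. There Ppargc1a was called in 21 of 21 alternatives, Tfam in 19, Esrrg in 16, Ppargc1b in 16 of 20, Esrrb in 15 and Perm1 in 10. The laparotomy count of 0 became 2 over both groups, 5 in LF and 1 in HF with no filter, 1 in LF and 3 in HF with only the groups compared, and 1 in LF without the Myh4 libraries. With 1 library left out it ranged from 0 to 2 over both groups and from 0 to 1 in LF and in HF. The interaction count of 0 became 2 with no filter and ranged from 0 to 1. The cause of these shifts was not tested. No paired analysis was possible because the labels give no replicate numbers shared between groups, and the numbers used here only follow the order of the samples. Read depth is unknown, so the counting error behind each level is too.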
